A study of Macaca mulatta with 21 samples.

Results

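SPP1, FAM89A, NFE2L3, TSPAN7 and AP1S2 are 5 rhesus macaque genes selected on measured values of these arrays, for large differences between pluripotent cell lines and skin fibroblasts. They are 5 of the 14132 genes with a named probe set, and 11 probe sets carry their symbols. All 5 were among the 11142 genes bright enough to be tested. The selection had no numeric limit, so no values just inside or outside one can be given. Because the contrast with fibroblasts chose the genes, it is described here for them without a test, and the tests concern the differences among the pluripotent lines.

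The study measured messenger RNA in 7 groups, each represented by 3 Affymetrix rhesus arrays lettered A, B and C. CRES-3 (female) and CRES-1 (male) are cloned lines, embryonic stem cells taken from blastocysts that were made by transferring a somatic nucleus. The induced pluripotent lines, reprogrammed by retroviruses that carry OCT4, SOX2, Klf4 and cMYC, are RiPS1 (male, fetal skin fibroblasts), RiPS2 (female, skin of a donor of 10 years) and RiPS3 (female, skin of a donor of 8 years). ORMES23 (male) comes from an in vitro fertilized blastocyst. The fibroblasts came from a skin biopsy of an adult female aged 8 years. Every group, the fibroblasts included, was grown on mouse embryonic fibroblast feeder cells, and RNA of the pluripotent lines came from hand-picked undifferentiated colonies. Each line is 1 derivation and the arrays are labelled biological replicates of it, so p-values measure the spread between cultures of a line and speak for these lines alone.

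Values are log2 RMA intensities, and those under log2 5 lie near background. No 2 arrays were identical (highest correlation 0.996). POU5F1 (OCT4) averaged 12.3 in the pluripotent lines and 4.14 in the fibroblasts. Among 11 tested core pluripotency genes (16 listed) 8 were called higher and 3 were not called (median log2 difference 5.77), and 13 of 14 fibroblast markers were called lower (median -3.43), so both labels fit their markers. ORMES23 A stood apart from its line: POU5F1 read 11.41 on it, against 12.21 and 12.19 on arrays B and C, and its mean level of 9 endoderm markers was 10.02, against 8.16 and 7.73.

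The 5 genes have unrelated products. SPP1 encodes osteopontin, a secreted phosphoprotein of the extracellular matrix that binds integrins and CD44 and that is made by bone cells, macrophages and many epithelia; in mouse embryonal carcinoma cells its enhancer is bound by Oct4. NFE2L3 encodes NRF3, a cap'n'collar (CNC) transcription factor of the NRF family that is held in the endoplasmic reticulum membrane and pairs with small MAF proteins. TSPAN7 encodes a tetraspanin, a membrane protein that crosses the membrane several times and organizes partner proteins, and AP1S2 encodes a small (sigma) subunit of the AP-1 adaptor, which sorts cargo into clathrin-coated vesicles at the trans-Golgi network and endosomes. FAM89A encodes a protein of little-known function. In RefSeq, the telomere-to-telomere MMU8v2.0 assembly places TSPAN7 and AP1S2 on chromosome X, SPP1 on chromosome 5, FAM89A on chromosome 1 and NFE2L3 on chromosome 3.

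All 18 arrays of pluripotent lines read higher than all 3 fibroblast arrays for each of the 5 genes, in the brightest probe set of each. SPP1, which has 1 probe set (MmuSTS.2862.1.S1_at), read 13.00, 13.53 and 13.21 on the A, B and C arrays of CRES-3 and 14.03, 14.05 and 14.001 on those of CRES-1. It read 12.92, 12.70 and 13.89 in RiPS1, 14.34, 13.22 and 14.11 in RiPS2, and 13.83, 13.47 and 13.36 in RiPS3. In ORMES23 it read 12.58, 13.96 and 14.05, and in the fibroblasts 6.09, 4.38 and 5.18. The fibroblast arrays thus straddled the background level, while the lowest pluripotent reading was array A of ORMES23. The mean of the 6 lines exceeded the fibroblasts by 8.35 (SE 0.32); the fibroblast mean of 5.22 lay so near background that no fold is given. The highest SPP1 reading, 14.34, lay close to 14.7, the top value on any array, and compression of the signal there was not tested.

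FAM89A (MmugDNA.32128.1.S1_at) read 11.79, 11.80 and 11.75 in CRES-3, 11.51, 11.69 and 11.34 in CRES-1, and 11.70, 12.11 and 11.38 in RiPS1. It read 11.21, 11.23 and 11.02 in RiPS2, 11.55, 11.56 and 11.28 in RiPS3, 11.38, 11.20 and 10.88 in ORMES23, and 3.65, 3.95 and 3.89 in the fibroblasts. The fibroblast values were all under the background level, so the difference of 7.64 (SE 0.13) amounts to at least 88.4-fold, counted from log2 5. NFE2L3 (MmugDNA.17159.1.S1_s_at) behaved alike. It read 11.29, 11.28 and 11.11 in CRES-3, 11.24, 11.44 and 11.07 in CRES-1, 10.82, 11.05 and 11.20 in RiPS1, 11.25, 10.72 and 10.37 in RiPS2, 11.14, 10.71 and 10.70 in RiPS3, and 11.11, 10.44 and 10.27 in ORMES23. The fibroblasts read 3.34, 4.33 and 3.20, and the difference of 7.34 (SE 0.21) amounts to at least 62.1-fold.

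TSPAN7 (MmuSTS.4036.1.S1_at) was the most variable of the 5 genes among pluripotent lines. It read 8.34, 8.51 and 8.33 in CRES-3, 7.80, 7.93 and 8.35 in CRES-1, and 9.40, 9.02 and 9.05 in RiPS1. It read 7.004, 7.61 and 7.54 in RiPS2, 7.98, 8.66 and 8.56 in RiPS3, 7.42, 8.22 and 8.52 in ORMES23, and 3.21, 3.78 and 4.43 in the fibroblasts. The mean of the 6 lines was at least 9.43-fold above the fibroblasts (log2 difference 4.43, SE 0.23). RiPS1 had the 3 highest arrays of all, RiPS2 lay below every array of CRES-3, CRES-1, RiPS1 and RiPS3, and only ORMES23 A fell within the range of RiPS2.

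AP1S2 (MmugDNA.42098.1.S1_at) was not switched off in the fibroblasts, where it read 8.57, 8.05 and 8.17, well above background. It read 13.17, 13.02 and 13.22 in CRES-3, 12.44, 12.65 and 12.75 in CRES-1, 13.04, 13.11 and 13.12 in RiPS1, 13.02, 13.24 and 13.16 in RiPS2, 13.14, 12.90 and 13.03 in RiPS3, and 12.45, 12.75 and 12.63 in ORMES23. The difference of the 6-line mean from the fibroblasts was 4.67 (SE 0.10), or 25.5-fold. CRES-1 and ORMES23 formed a lower pair whose arrays did not overlap those of the other 4 lines (the share of all genes with such a gap is not given here).

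**Figure D1:**
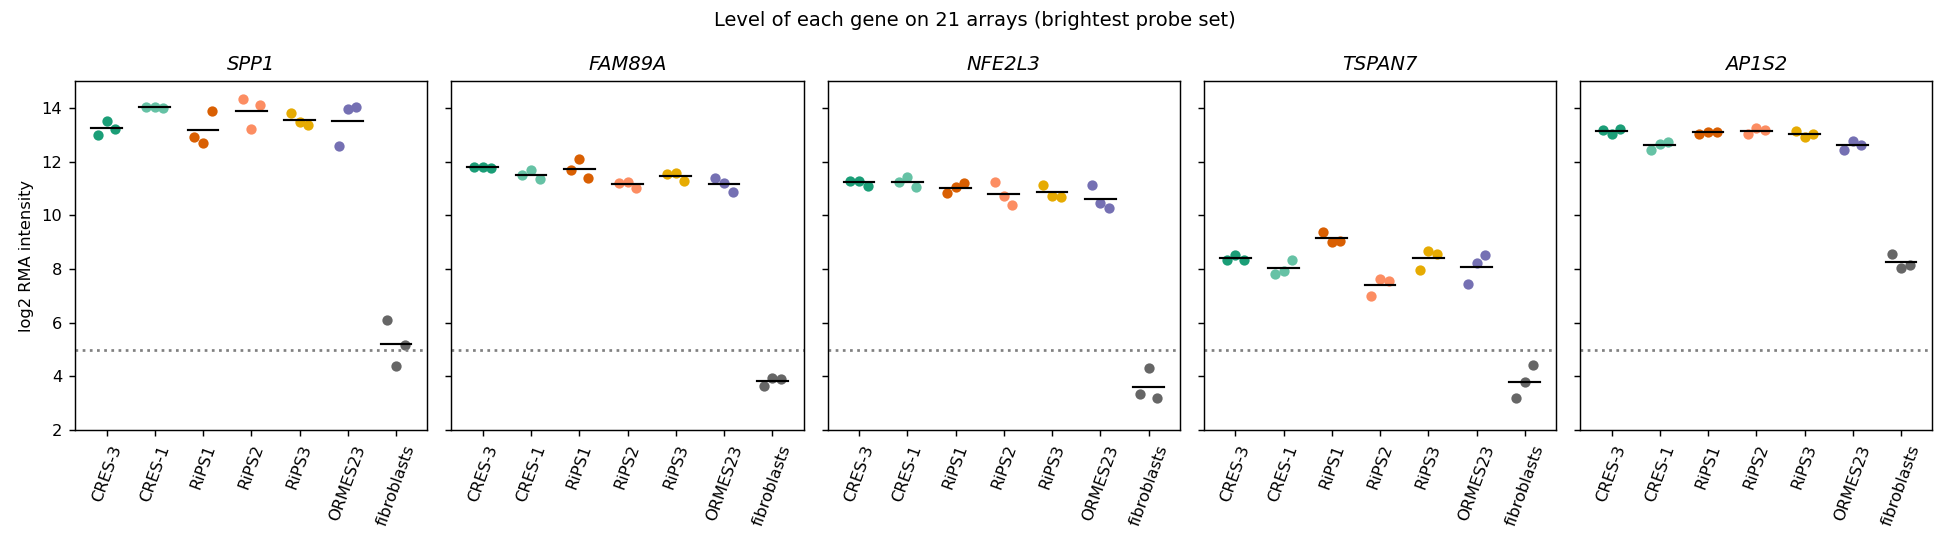
Log2 RMA intensity of the brightest probe set of SPP1, FAM89A, NFE2L3, TSPAN7 and AP1S2 on each of 21 arrays, with 3 points (arrays A, B and C) and a bar for the mean per group; the dotted line is the background level of log2 5. All pluripotent arrays lie above the fibroblasts, AP1S2 stays above log2 8 in the fibroblasts, and TSPAN7 spreads most between lines.

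The size of the difference from fibroblasts depended on the probe set for 3 of the genes. The other FAM89A probe set (MmugDNA.43386.1.S1_at) averaged 8.57 in the pluripotent lines and 7.94 in the fibroblasts, a difference of 0.63 (SE 0.11) or 1.55-fold, so by it FAM89A was neither off in fibroblasts nor much higher in pluripotent cells. The other AP1S2 probe sets differed by 1.19 (MmugDNA.28102.1.S1_at, 11.5 in the pluripotent lines and 10.3 in the fibroblasts) and by 1.23 (MmuSTS.472.1.S1_at, 11.4 in the pluripotent lines and 10.1 in the fibroblasts). The dimmer TSPAN7 probe set differed by 1.58, with 6.02 in the pluripotent lines and 4.43 in the fibroblasts. NFE2L3 had a large difference in all 3 of its probe sets, with 5.96 (MmugDNA.26523.1.S1_s_at) and 5.93 (MmugDNA.17159.1.S1_at) for the others. Averaging the probe sets of a gene gave 4.13 for FAM89A, 2.36 for AP1S2, 3.01 for TSPAN7 and 6.41 for NFE2L3. Which transcripts each probe set detects was not tested.

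**Figure D2:**
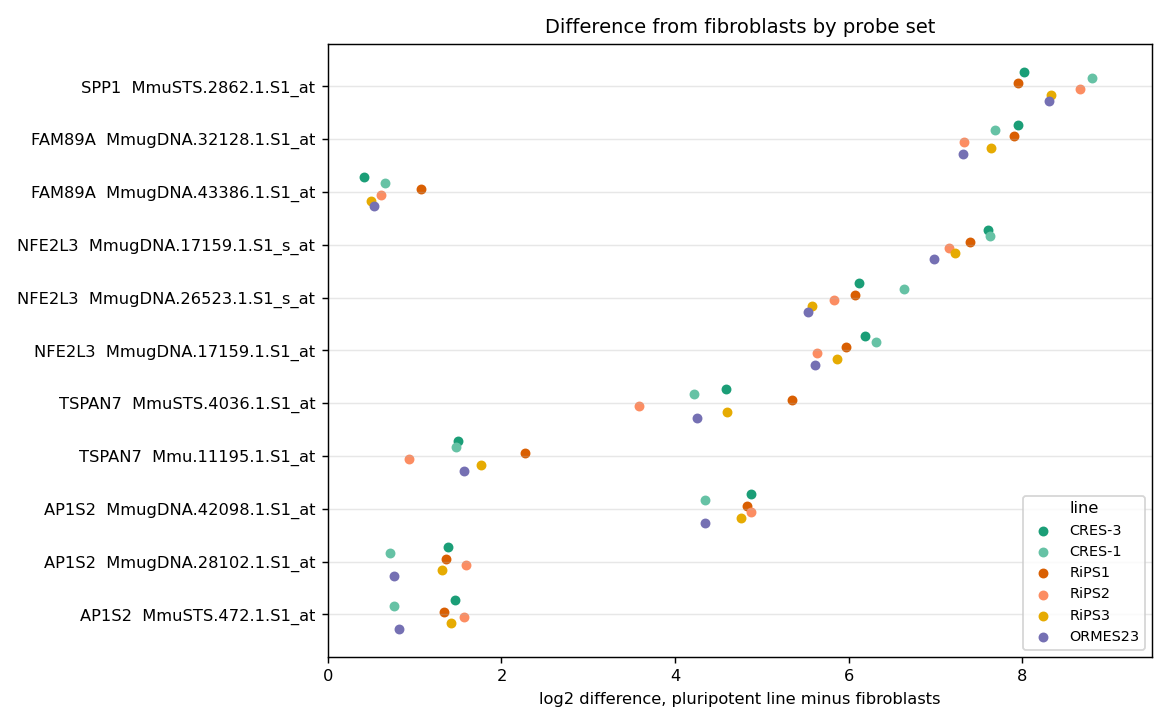
Log2 difference of each pluripotent line from the fibroblasts (horizontal axis) for each of the 11 probe sets, 1 point per line. The FAM89A probe sets differ by 7.64 and 0.63 on average over lines, and the 3 AP1S2 probe sets by 4.67, 1.19 and 1.23, but CRES-1 and ORMES23 are the lowest lines in all 3 AP1S2 probe sets.

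The 6 pluripotent lines were then compared with each other, a contrast that did not choose the genes. A gene was called at an adjusted p under 0.05 and a fold of at least 2. TSPAN7 differed among the lines, with 3.41-fold between RiPS1 and RiPS2, the highest and lowest means (log2 range 1.77, adjusted p = 0.0087, moderated F test), and was the only 1 of the 5 genes called; over all genes 7.52% were called. Its range exceeded that of 98.1% of genes. AP1S2 (range 0.53, adjusted p = 0.0091) and FAM89A (range 0.63, adjusted p = 0.029) passed the p limit but stayed under 2-fold. SPP1 (range 0.86, adjusted p = 0.47) and NFE2L3 (range 0.64, adjusted p = 0.33) passed neither limit. For SPP1 the spread between arrays of a line was large (pooled SD 0.51, above that of 96.1% of genes), whereas for AP1S2 it was small (pooled SD 0.12, above that of 14%). The median gene had a range of 0.44 and a pooled SD of 0.19.

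Ordered by mean level, TSPAN7 ran RiPS1 (9.16 ± 0.21), RiPS3 (8.40 ± 0.37), CRES-3 (8.39 ± 0.10), ORMES23 (8.06 ± 0.57), CRES-1 (8.03 ± 0.29) and RiPS2 (7.39 ± 0.33; SD, n = 3 each). RiPS1 against RiPS3 and CRES-1 against RiPS2 were the only neighbours in that order whose arrays did not overlap, and neither step passed the test (adjusted p = 0.137 and 0.342). AP1S2 ran RiPS2, CRES-3, RiPS1, RiPS3, CRES-1 and ORMES23, and its only step without overlap was RiPS3 over CRES-1 (0.41, adjusted p = 0.0868). FAM89A ran CRES-3, RiPS1, CRES-1, RiPS3, RiPS2 and ORMES23, with RiPS3 over RiPS2 as the only step without overlap (0.31, adjusted p = 0.343). For SPP1 (CRES-1, RiPS2, RiPS3, ORMES23, CRES-3, RiPS1) and NFE2L3 (CRES-1, CRES-3, RiPS1, RiPS3, RiPS2, ORMES23) all neighbours overlapped. The share of all genes with steps without overlap is not given here, so the steps are descriptions.

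Whether reprogrammed lines differ from the embryo-derived line was examined by setting each against ORMES23, which these comparisons share. TSPAN7 was higher in RiPS1 by 1.10 (SE 0.30, 95% interval 0.46 to 1.73, 2.14-fold, adjusted p = 0.0287), the only call in the 5 genes, where 2.4% of all genes were called. In the other lines it differed from ORMES23 by 0.34 (CRES-3), -0.03 (CRES-1), -0.67 (RiPS2) and 0.34 (RiPS3). AP1S2 read above ORMES23 by 0.52 in CRES-3 (SE 0.13, adjusted p = 0.040), 0.48 in RiPS1 (adjusted p = 0.030), 0.53 in RiPS2 (adjusted p = 0.068) and 0.41 in RiPS3 (adjusted p = 0.125), and by 0.00 in CRES-1 (95% interval -0.28 to 0.28). FAM89A read above it by 0.63 in CRES-3 (adjusted p = 0.052) and 0.58 in RiPS1 (adjusted p = 0.038). None of these AP1S2 and FAM89A differences reached 2-fold. NFE2L3 differed from ORMES23 by 0.17 to 0.64 and SPP1 by -0.36 to 0.50, with no adjusted p under 0.05.

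None of the 5 genes was called by limma against ORMES23 in CRES-3 (0.996% of all genes called), CRES-1 (0%), RiPS2 (0.458%) or RiPS3 (0.772%). At an unadjusted p under 0.05 were 3 of the 5 genes in CRES-3 (1886 of all 11142 genes) and 2 in CRES-1 (1268). In RiPS2 there were 2 (1327 of all genes) and in RiPS3 1 (1627). The TSPAN7 call in RiPS1 was lost without array A of ORMES23 (0.78, adjusted p = 0.113), the array that stood apart, and also without ORMES23 B (1.18, adjusted p = 0.0592), RiPS1 A (0.98, adjusted p = 0.123) or RiPS1 B (1.17, adjusted p = 0.0603).

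**Figure D3:**
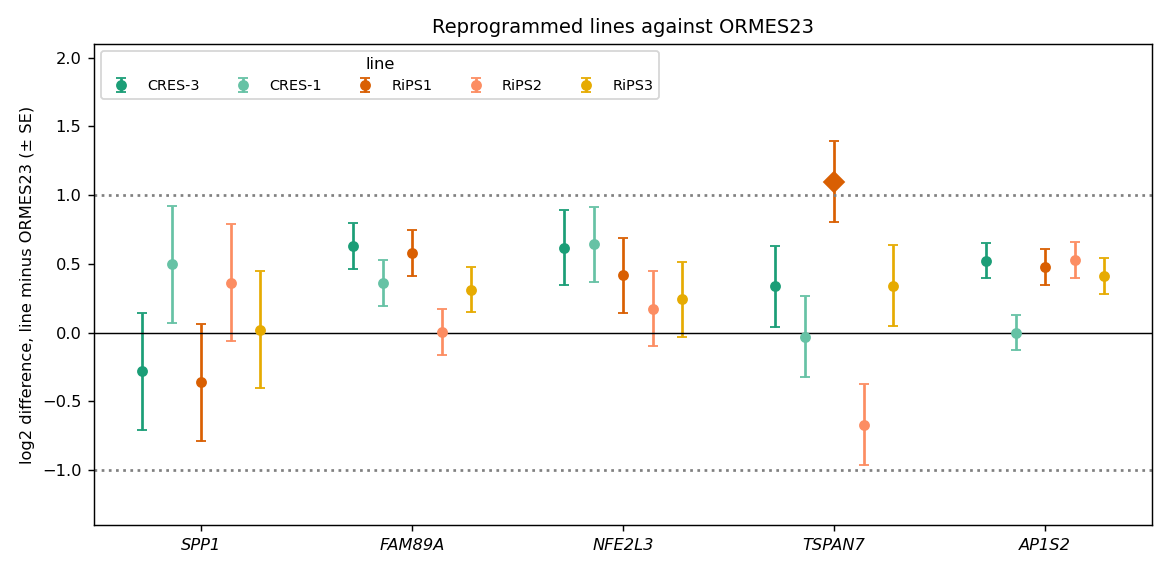
Log2 difference of each reprogrammed line from ORMES23 (vertical axis, error bars ± SE of the fit) for the 5 genes; dotted lines mark a 2-fold difference and the diamond marks the only called value, TSPAN7 in RiPS1 at 1.10. AP1S2 lies between 0.41 and 0.53 in all lines except CRES-1, at 0.00.

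Cloned and induced lines were compared within each labelled sex. Between the male lines TSPAN7 was lower in CRES-1 than in RiPS1 by 1.13 on the log2 scale (difference -1.13, SE 0.30, 2.18-fold, adjusted p = 0.0271), the only call in the 5 genes, where 2.14% of all genes were called. AP1S2 also read lower in CRES-1 (-0.48, adjusted p = 0.033) but under 2-fold. The TSPAN7 call was lost without CRES-1 A (-1.01, adjusted p = 0.121), CRES-1 B (-1.08, adjusted p = 0.0803), RiPS1 A (-1.01, adjusted p = 0.113) or RiPS1 B (-1.20, adjusted p = 0.0609). Between the female lines CRES-3 and RiPS3 none of the 5 was called, nor did any pass an unadjusted p of 0.05. Of all 11142 genes, 0.0359% were called in that pair and 882 passed an unadjusted p of 0.05. There TSPAN7 differed by -0.01 (95% interval -0.64 to 0.63) and AP1S2 by 0.11 (95% interval -0.17 to 0.39). The differences of the male and female pairs were set against each other as an interaction, which called none of the 5 (2.89% of genes called). In this interaction 3 of the 5 had an unadjusted p under 0.05, as had 2233 of all 11142 genes. Its values were -1.12 for TSPAN7 (adjusted p = 0.141) and -0.59 for AP1S2 (adjusted p = 0.0764).

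Among the induced lines, TSPAN7 was higher in RiPS1, from fetal cells, than in the mean of RiPS2 and RiPS3, from adult cells, by 1.26 (SE 0.26, 2.40-fold, adjusted p = 0.0035; 1 of 5 genes called, 2.51% of all genes). Donor age, labelled sex and line cannot be told apart here, since 1 line came from fetal cells and it is also the only male induced line. The RiPS1 level lay well above RiPS2 (1.77, SE 0.30, adjusted p = 0.000896; 3.61% of genes called) and less far above RiPS3 (0.76, adjusted p = 0.137; 2.44%). RiPS2 read lower than RiPS3 by 1.01 (difference -1.01, adjusted p = 0.0704), with no member called (1.18% of genes called). For this pair 1 of 5 had an unadjusted p under 0.05, as had 2030 of all 11142 genes. The dimmer TSPAN7 probe set was called for RiPS1 over RiPS2 (6.70 and 5.36, difference 1.33, adjusted p = 0.0064) but for no other pair of lines and not among the 6 lines (adjusted p = 0.0514). It gave 0.70 for RiPS1 over ORMES23 (adjusted p = 0.178), -0.79 for CRES-1 against RiPS1 (adjusted p = 0.120), and 0.92 for RiPS1 over the mean of RiPS2 and RiPS3 (adjusted p = 0.024, under 2-fold).

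TSPAN7 is X-linked, and some other X-linked genes were called in the same comparisons. In RiPS1 against ORMES23, 46 of 431 X-linked genes were called (10.7%, where 2.4% of all genes were called), 43 of them higher in RiPS1. Against the mean of RiPS2 and RiPS3 there were 45 (10.4%, where 2.51% of all genes were called), of which 44 were higher. AP1S2, also X-linked, was called in neither comparison (0.48 and 0.01). The X-linked median was 0.14 in RiPS1 against ORMES23, and the autosomal median 0.00. Endoderm markers averaged log2 8.15 to 9.09 on the RiPS1 arrays and 7.16 to 7.48 on the RiPS2 arrays, all 9 markers averaging above log2 5 in both lines. On ORMES23 A, where the endoderm markers were highest, TSPAN7 was the lowest of its line (7.42). Over the 18 pluripotent arrays the mean of the endoderm markers had r = 0.115 with TSPAN7, or -0.615 with line means removed. The part of X-linked genes or of other cell types in the TSPAN7 difference was not tested, and in bulk RNA fewer cells of a type and less RNA per cell cannot be told apart.

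The remaining pairs of lines gave no call among the 5 genes except TSPAN7 in RiPS1 over RiPS2, so TSPAN7 was called in 3 of 15 pairs, each of them with RiPS1. AP1S2 passed the adjusted p limit in 5 of 15 pairs, each with CRES-1 or ORMES23 as the lower line, all under 2-fold. Between the cloned lines it read higher in CRES-3 than in CRES-1 by 0.52 (adjusted p = 0.021), with none of 5 genes called (2.61% of genes called). For this pair 1 of 5 had an unadjusted p under 0.05, as had 2793 of all 11142 genes. The other AP1S2 probe sets gave 0.67 (adjusted p = 0.0456) and 0.70 (adjusted p = 0.035) for the same pair. Of the crossed pairs, CRES-1 against RiPS2 (0.709% of all genes called), CRES-1 against RiPS3 (1.53%), CRES-3 against RiPS1 (2.03%) and CRES-3 against RiPS2 (1.48%) gave no call. At an unadjusted p under 0.05 were, in the same order, 3 of the 5 genes (1549 of all 11142), 1 (2192), 1 (2188) and 2 (2362).

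X inactivation is the subject that the series names, so the labelled sexes were set against each other with the line as the replicate. AP1S2 averaged 13.10 ± 0.07 in the 3 female lines and 12.77 ± 0.28 in the 3 male lines (SD, n = 3 lines each), a difference of 0.33. TSPAN7 averaged 8.06 ± 0.58 in the female lines and 8.41 ± 0.64 in the male lines, a difference of -0.35. The exact permutation test over the 6 line means, two-sided, gave p = 0.2 for AP1S2, 0.6 for TSPAN7, 0.9 for FAM89A and NFE2L3 and 1 for SPP1, where the smallest possible p is 0.1, and each of the 5 had an adjusted p of 1 over the 5 genes. No difference between the sexes was thus called, and 3 lines against 3 could not have reached 0.05. For AP1S2 the male line RiPS1 (13.1) lay among the female lines. SPP1, FAM89A and NFE2L3, which are autosomal, differed between the sexes by -0.01, 0.00 and -0.01.

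The genes most like each of the 5 over the 18 pluripotent arrays were found by Pearson correlation; arrays of a line share their culture line and all genes share the normalization, so these are descriptions. SPP1 went with CAV1 (caveolin, r = 0.955), the receptor tyrosine kinase gene AXL (0.932) and KMO, an enzyme of tryptophan breakdown (0.924). With each line's mean removed these were 0.965, 0.917 and 0.906. The same arrays picked these genes, so the values are no separate evidence of likeness. CAV1 averaged 11.86 in CRES-1 and 11.87 in RiPS2, the highest lines of SPP1. In RiPS1, the lowest line of SPP1, CAV1 averaged 10.84. On ORMES23 A, B and C, CAV1 read 10.02, 11.89 and 12.11, and in RiPS1 it read 10.62, 10.32 and 11.59, in the same order as SPP1 in both lines. CAV1 was high in the fibroblasts (12.5), unlike SPP1.

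Of the marker lists, the mean level of 5 tested neural markers (12 listed) followed SPP1 most closely (r = 0.818, or 0.879 with line means removed, over 18 arrays). Trophoblast (0.605), mesoderm (0.411) and fibroblast markers (0.375) also rose with SPP1, while endoderm markers (-0.387) and core pluripotency genes (-0.314) went the other way. With line means removed these were 0.662, 0.269, 0.471, -0.448 and -0.168. The neural mean was 6.76, 8.07 and 8.20 on ORMES23 A, B and C and 7.97, 6.95 and 8.14 on RiPS2 A, B and C, where SPP1 was lowest on the same arrays, ORMES23 A and RiPS2 B. Its range was 6.84 to 7.04 in CRES-3, 7.58 to 7.59 in CRES-1, 6.79 to 7.25 in RiPS1 and 6.74 to 7.27 in RiPS3, against 6.22 to 6.32 in the fibroblasts. SOX3 (4.31), GFAP (1.24) and DCX (1.12) of this list were called higher in the pluripotent lines than in the fibroblasts, while TUBB3 (-0.87) and PAX6 (-0.65) were not called. SOX3 (4.99) and DCX (4.36) averaged under log2 5 in the fibroblasts, so their folds are lower bounds, 1.40-fold for DCX. PAX6 averaged 3.82 in CRES-3, 5.87 in CRES-1, 3.72 in RiPS1, 6.28 in RiPS2, 3.76 in RiPS3 and 5.59 in ORMES23, against 5.49 in the fibroblasts. The other 4 markers averaged above log2 5 in every pluripotent line. The range of line means was widest for PAX6 (2.57), which lay near background in CRES-3, RiPS1 and RiPS3. The markers did not all follow SPP1 between lines. In CRES-1, the highest line of SPP1, TUBB3 (9.42) was highest and SOX3 (9.76) was close to its highest line, ORMES23 (9.80). GFAP (7.77) and DCX (5.12) were lowest in CRES-1. The part of these cell types in the spread of SPP1 was not tested. Macrophages also make osteopontin. Of 6 tested macrophage markers (13 listed) CD68 was called higher in the pluripotent lines (6.27, against 4.54 in the fibroblasts) and 5 were not called. In the pluripotent lines MRC1 averaged 9.34, C1QA 6.30, AIF1 5.23, and ITGAM and CD14 4.81 each; the mean of the list had r = -0.491 with SPP1, and the part of such cells in the SPP1 level was not tested.

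FAM89A was most like PLEKHA1 (r = 0.913), GPR160 (0.891) and SYT4 (0.869), and NFE2L3 was most like LRP11 (0.815), LOC699676 (0.766) and KSR1 (0.757). SYT4 averaged under log2 5, near background, in CRES-1 (4.76), RiPS2 (4.64), RiPS3 (4.75) and ORMES23 (4.31). TSPAN7 was most like GALK2, a galactokinase family gene (0.932), TNN (0.888) and THBS4 (0.884). THBS4 was close to background, with averages from 5.12 in RiPS2 to 6.04 in RiPS1 among the pluripotent lines. GALK2 had the same highest and lowest lines as TSPAN7, with 6.995 in RiPS1 and 6.16 in RiPS2, but read 7.26 in the fibroblasts. AP1S2 was most like TXLNG (0.883), ACOT7 (0.853) and AUNIP (0.852). TXLNG is also X-linked, with 5 protein-coding genes between it and AP1S2 in the rhesus assembly. TXLNG averaged 10.4 in CRES-3, 10.7 in RiPS1, 10.5 in RiPS2 and 10.1 in RiPS3, against 9.68 in CRES-1 and 9.45 in ORMES23. The same lines thus had the lowest means, in a gene picked for its correlation with AP1S2. Unlike for AP1S2, the arrays overlapped, with TXLNG at 10.01 on CRES-1 C and 9.91 on RiPS3 B. With line means removed the likeness of AP1S2 fell to 0.527 for TXLNG, 0.255 for ACOT7 and 0.333 for AUNIP, and thus rested mainly on differences between lines. Among the 5 genes themselves the correlations ran between -0.557 (SPP1 with FAM89A) and 0.642 (FAM89A with NFE2L3).

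**Figure D4:**
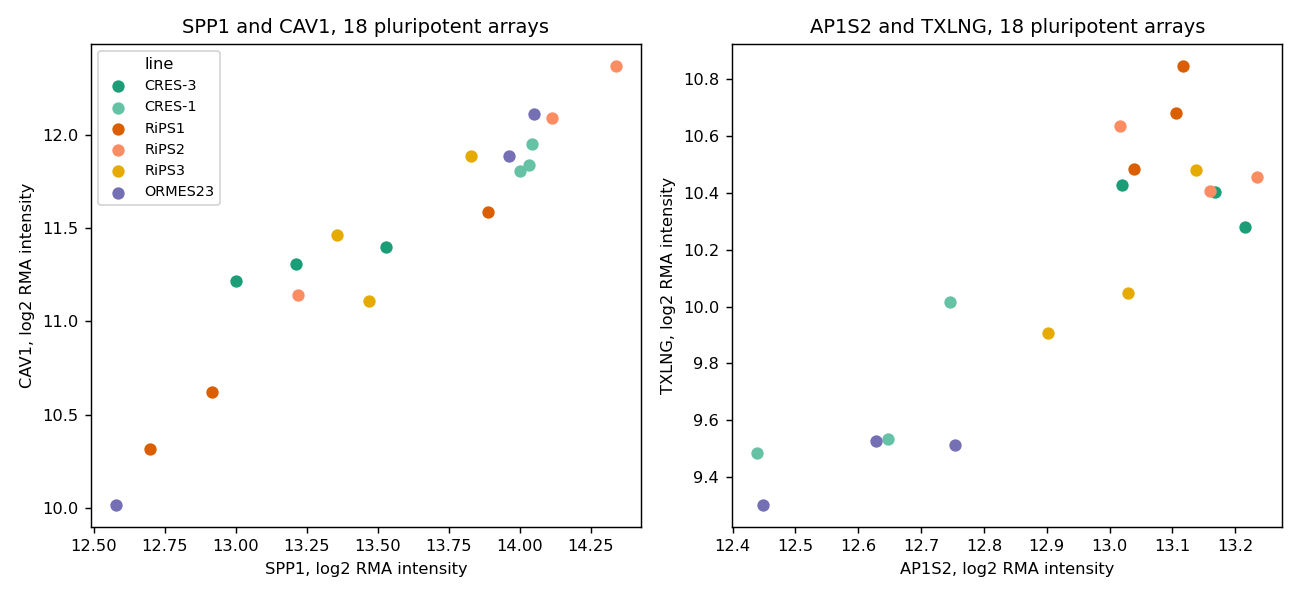
Log2 RMA intensity of SPP1 against CAV1 (left) and of AP1S2 against TXLNG (right) on the 18 arrays of pluripotent lines, coloured by line. SPP1 and CAV1 move together within lines (ORMES23 A and RiPS1 A and B at the low end). On the right the arrays of CRES-1 and ORMES23 lie lowest for AP1S2, without overlap, and mostly lowest for TXLNG, with overlap.

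The partners and relatives of the 5 genes were set against the fibroblasts in the same contrast. Over all tested genes 17.7% were called higher and 14% lower in the pluripotent lines, with a median log2 difference of 0.03. Genes not called in these lists are not all unchanged. Some passed the p limit but stayed under 2-fold, such as NFE2L2 (0.73, adjusted p = 2.60e-05) and AP1S1 (-0.60, adjusted p = 0.00034). Of 7 tested osteopontin receptors (10 listed) 5 were not called and 2 fell in the pluripotent lines: CD44, the hyaluronan receptor (4.47 in the pluripotent lines and 7.25 in the fibroblasts, difference -2.78, adjusted p = 2.51e-11), and the integrin chain ITGB1 (-1.35, adjusted p = 7.38e-06). The list had a median of -0.50. Of 7 tested genes of the osteopontin family and its processing (11 listed) 4 fell: the matrix metalloproteinases MMP3 (-5.35) and MMP9 (-1.43), the secretory kinase FAM20C (-3.17) and the transglutaminase TGM2 (-1.07), with a list median of -1.07.

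For NFE2L3, the CNC factors and their partners had 1 gene higher and 2 lower of 11 tested (14 listed, median -0.12). NFE2, the erythroid CNC factor, rose by 2.05 (adjusted p = 7.33e-08), the small MAF gene MAFF fell by 2.35 (adjusted p = 3.94e-05), and the ubiquitin ligase gene SYVN1 fell by 1.11 (adjusted p = 1.20e-07). NFE2L1 (-0.10) and NFE2L2 (0.73), the relatives NRF1 and NRF2, were not called. Among 13 tested antioxidant and proteasome-related targets of the family (24 listed), SLC7A11, the cystine transporter, rose (2.40, adjusted p = 7.58e-05), SRXN1 (sulfiredoxin, -1.77) and ME1 (malic enzyme, -1.70) fell, and 10 were not called (median 0.30).

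For TSPAN7, 4 of 19 tested tetraspanins (43 listed) were higher and 6 lower (median -0.33). TSPAN9 rose by 1.84 and TSPAN6 by 1.68, while CD9 (10.9 in the pluripotent lines and 12.9 in the fibroblasts, -1.98) and CD151 (-1.80) fell. Of the genes named after their values were seen, TSPAN2 (2.36) and TSPAN33 (1.60) also rose. TSPAN4 (-1.74), CD63 (-1.54), TSPAN31 (-1.50) and CD81 (-1.25) also fell. For AP1S2, the other AP-1 subunits and clathrin partners had 1 higher and 1 lower gene of 9 tested (14 listed, median 0.04). SYNRG (gamma-synergin), an AP-1 binding protein, rose by 1.07 (adjusted p = 4.45e-08), and AP1M1, the medium subunit of AP-1, fell by 2.52 (6.96 in the pluripotent lines and 9.48 in the fibroblasts, adjusted p = 5.60e-15). The sister sigma subunits AP1S1 (-0.60) and AP1S3 (0.13) were not called. Of 15 tested genes of other adaptor complexes (20 listed) AP3B2 rose by 1.87 and AP5S1 fell by 1.18 (median -0.18). FAM89B, the paralog of FAM89A, fell by 1.15 (8.30 in the pluripotent lines and 9.45 in the fibroblasts, adjusted p = 2.53e-07).

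The core pluripotency genes that rose were led by POU5F1 (8.16), SOX2 (7.62), the RNA-binding protein gene LIN28B (7.53) and the DNA methyltransferase gene DNMT3B (7.51). CD44 and MMP3 in the pluripotent lines averaged under log2 5. So did NFE2, SOX3, DCX, CD68 and these 4 core genes in the fibroblasts. The differences of all these genes are not measured ratios. The lists were chosen with earlier results of these data known, and no list was tested as a set.

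**Figure D5:**
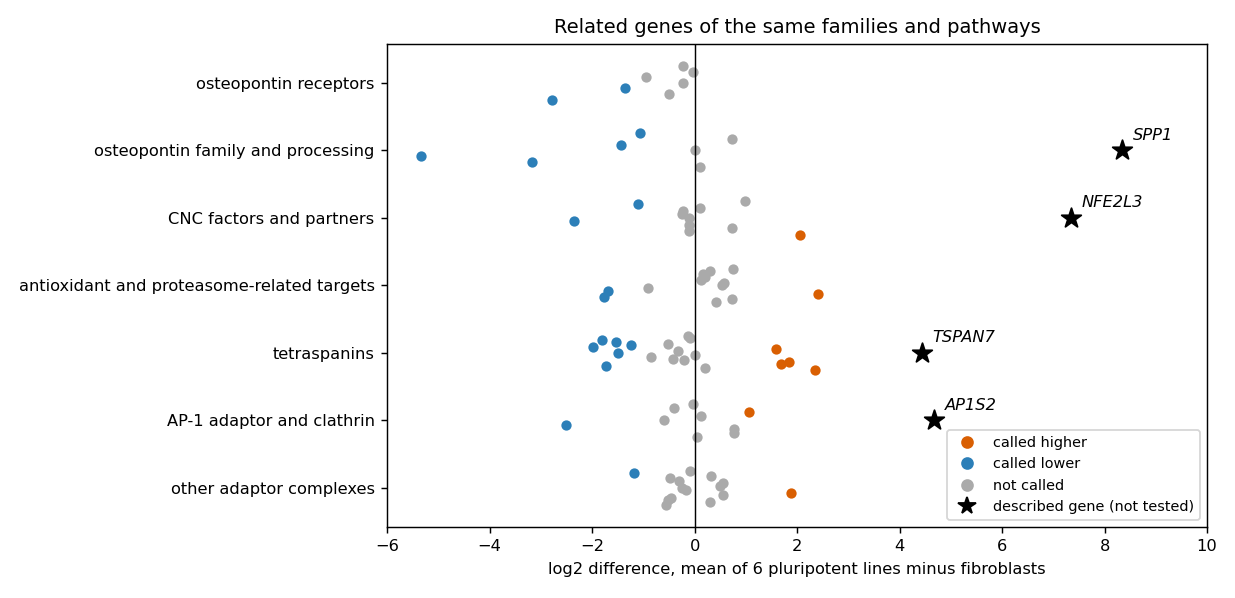
Log2 difference of the mean of the 6 pluripotent lines from the fibroblasts (horizontal axis) for tested genes of 7 related lists, coloured by call, with the described genes as stars (not tested). The called relatives lie between -5.35 (MMP3) and 2.40 (SLC7A11); the stars, from 4.43 to 8.35 by the brightest probe set, were chosen for this difference and are no comparison with the relatives.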

How the data were processed

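Log2 intensities per probe set were deposited by the authors. Per the submitters' processing notes the tool was RMA, the robust multi-array average, of a version not given in the sources used here. From 52865 probe sets, 24956 with 1 gene symbol were kept; 361 had several symbols, 27535 had none and 13 were control probe sets. A gene was read from its brightest probe set by mean over all 21 arrays and tested at log2 5 or more on at least 3 arrays. Group differences came from limma 3.58.1 (R 4.3.3; lmFit and eBayes, a mean per group, 14 residual degrees of freedom), with two-sided p-values adjusted by Benjamini-Hochberg over all 11142 genes. A call needs an adjusted p under 0.05 and a fold of at least 2. Where the dimmer group averaged under log2 5 the fold is a lower bound from that level. The number of arrays limits the precision. The procedure was run on simulated data of independent normal values, a simpler setting than these arrays, and the outcome is not given here.

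Named genes are the 5 genes with all probe sets, POU5F1, up to 4 called genes per list by smallest adjusted p, and per gene the 3 most correlated tested genes. The markers, the NFE2L relatives, the AP1S1 and AP1S3 subunits, TSPAN2, TSPAN4, TSPAN31, TSPAN33, CD63 and CD81 were named after their values were seen. Genes and lists were chosen with earlier results of these data known. Alternatives were other filters, probe set rules, scalings, variance models, arrays and a replicate block. Sequences and promoters are not analysed here.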

Additional observations from a re-analysis of the deposited data

How the results depend on the processing

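Over 30 alternatives (a replicate block, other filters, probe set rules, scalings and variance models, and each array left out), TSPAN7 stayed called in the test among the 6 lines (range 1.55 to 1.88, adjusted p 0.0022 to 0.0364), in RiPS1 over the mean of RiPS2 and RiPS3 (1.09 to 1.33) and in RiPS1 over RiPS2. The number of the 5 genes called changed in 3 comparisons, always through TSPAN7. For RiPS1 against ORMES23 it was 1, but 0 with the mean of a gene's probe sets (0.90, adjusted p = 0.052), and 0 to 1 with single arrays left out. For CRES-1 against RiPS1 it was 1, but 0 with the mean of probe sets (-0.96) and 0 with quantile normalization (-1.02, adjusted p = 0.0554), and 0 to 1 with single arrays left out. For RiPS2 against RiPS3 it was 0, but 1 with the replicate block (-1.01, adjusted p = 0.0294), 1 with the pluripotent arrays only (adjusted p = 0.0359), and 0 to 1 with single arrays left out (1 without ORMES23 A, RiPS3 A, fibroblasts A or fibroblasts C). The cause was not tested. No clear pairing of the arrays by the letters A, B and C was seen, though this check cannot exclude it. Deviations of arrays with the same letter correlated above 0.1 in 20 of 63 pairs (median 0.01). For arrays of other letters it was 33 of 126 pairs (median 0.00). The replicate block changed no other number of calls in the 5 genes. No value changed direction past the limits, and the calls in the related lists stayed within 1.5 times. Readings under log2 5 give bounds only, and the probe sets of AP1S2 and FAM89A disagree on the size of the difference from fibroblasts.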
